A study of Canis lupus familiaris with 109 samples.

Results

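The 300 most variable runs were short stretches of densely listed cytosines of dog blood DNA whose measured methylation spread most between libraries, after runs that moved with 1 run on chromosome 9 were set aside. A run was 10 or more listed columns (cytosine positions) on 1 chromosome with gaps of up to 100 bp, and its level in a library was the mean methylation fraction over its columns. The members were the 300 runs, of 7274 (4.12%), with the largest standard deviation (SD) of the level over 95 libraries. Runs with an absolute Pearson r of 0.5 or more to a run on chromosome 9, chr9:3827585-3827749, had been left out, which removed 283 runs, 107 of them among the 300 with the largest SD and 141 of them above the SD of the last member. The members held 5281 of the 304191 columns. The members were thus chosen by their spread over these 95 libraries, and their spread and level are given as a description, with no test.

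Whole-blood DNA of domestic dogs was bisulfite treated, which lets unmethylated cytosines be read as thymine, and captured before sequencing. The labels list 109 samples, of which 94 fall into life stages by age in years: 13 juvenile (0.134 to 0.455), 6 adolescent (0.559 to 1.9), 35 mature (2.24 to 6.9) and 40 senior (7.33 to 14.5). The remaining labels are for 6 repeat captures (0.384 to 15.5 years) and 1 further sample measured only with them (15.5 years). The other 8 are low-coverage samples (0.455 to 9.33 years). The 95 library codes of the main table and the 7 of the repeat table match no label, which leaves age, sex and dog unknown for each library, and no stages were compared. Positions are on CanFam3.1 and carry an uncertainty of 1 bp. No gene annotation on that build was used here, so members are named by position, and their place relative to genes is not given.

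Methylation of a CpG in blood is an average over many cells and over both parental chromosomes. A level can differ between animals because they carry different DNA sequence nearby, because one allele is methylated and the other is not, because the mix of white blood cells differs, or because methylation changes with age. A fraction near the middle can come from a mixture of fully methylated and unmethylated molecules as well as from partly methylated ones, and fractions per position do not tell these apart. Which of these applies to any member was not tested.

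The members ranged in SD from 0.0548 to 0.248, with a median of 0.0727, whereas the median SD over all runs was 0.00686. The distance between a member's lowest and highest library had a median of 0.365 and ran from 0.232 to 0.92. At the limit, chr31:35805505-35805744 and chr5:71179272-71179370 lay just inside, with SDs of 0.054983 and 0.054799. Just outside lay chr6:17925906-17925986 at 0.054752 and chr4:25583792-25584011 at 0.054709. No gap in SD separated the last members from the runs that followed. Members were close to other runs in size, with a median of 13 columns over 166 bp against 16 columns over 184 bp for all runs.

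Members were found at all levels, with the largest number in the middle of the scale. The median level over libraries was under 0.1 in 25 members, 0.1 to 0.3 in 99, 0.3 to 0.7 in 118, over 0.7 to 0.9 in 57 and over 0.9 in 1. Most captured runs were unmethylated instead, since 71.3% of all runs had a median level under 0.1. Of the 294 runs with a median from 0.3 to 0.7, 40.1% were members, against 0.482% of the runs under 0.1 and 0.121% of those over 0.9. A level near 0 or 1 leaves little room for spread, and the runs of intermediate level that were no members still had a median SD of 0.043.

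**Figure D1:**
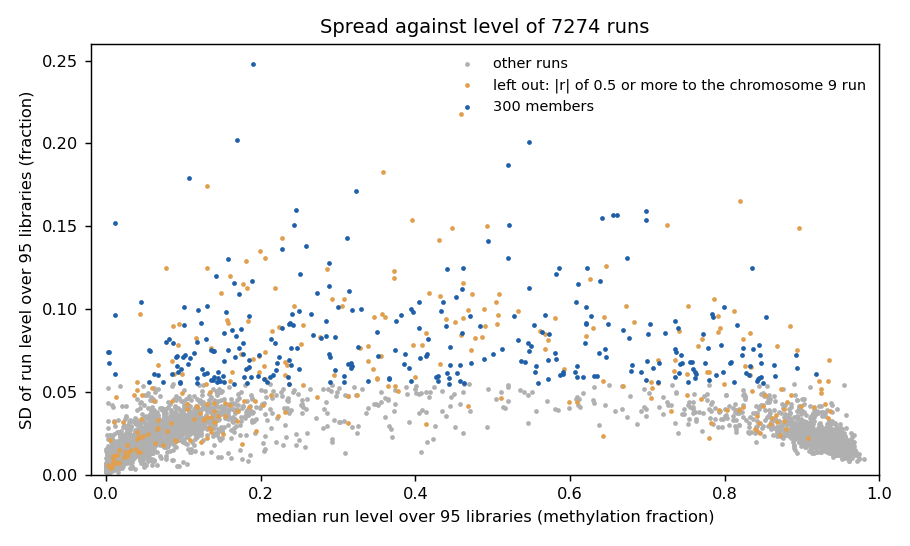
The SD of the run level over 95 libraries (vertical axis, fraction) is plotted against its median (horizontal axis, methylation fraction) for 7274 runs, with the 300 members in blue and the 283 runs left out for their r to the chromosome 9 run in orange. The members lie above an SD of 0.0548 at nearly all levels, with the largest number at medians from 0.3 to 0.7.

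The most variable member lay on chromosome 28 and went from unmethylated to almost fully methylated. This run, chr28:3528117-3528456, had 49 columns, a lowest library of 0, a median of 0.19 and a highest library of 0.92 (SD 0.248). In 50 libraries it was under 0.2 and in 13 over 0.5. The second member was its neighbour, chr28:3513875-3514117, with 15 columns and levels from 0.0267 through a median of 0.169 to 0.805 (SD 0.202). Both had most libraries low and a tail of high ones.

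The next members had other shapes. On chromosome 5, chr5:78455022-78455134 had no library under 0.2, and ran from 0.29 through a median of 0.547 to 0.936 (SD 0.201), with 28 libraries over 0.8. On chromosome 7, chr7:38896094-38896187 covered nearly the whole scale, from 0.04 through 0.519 to 0.931 (SD 0.187). On chromosome 20, chr20:41399678-41399782 was mostly low, from 0 through 0.107 to 0.664 (SD 0.179). The chromosome 5 run thus varied between intermediate and high, the chromosome 7 run over the whole range, and the chromosome 20 run between low and intermediate.

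Ranks 6 to 10 lay on 5 more chromosomes. The members chr34:3704828-3704989 and chr19:2398353-2398636 were low to intermediate, with medians of 0.323 and 0.245 and highest libraries of 0.868 and 0.79. Higher medians were found in chr9:36529186-36529299, at 0.698 from 0.251 to 0.901, in chr12:1196826-1196920, at 0.655 from 0.332 to 0.911, and in chr3:71452008-71452184, at 0.661 from 0.114 to 0.892. In the chromosome 3 run 2 libraries lay under 0.2 while 81 lay over 0.5, so that a few low libraries made much of its range.

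**Figure D2:**
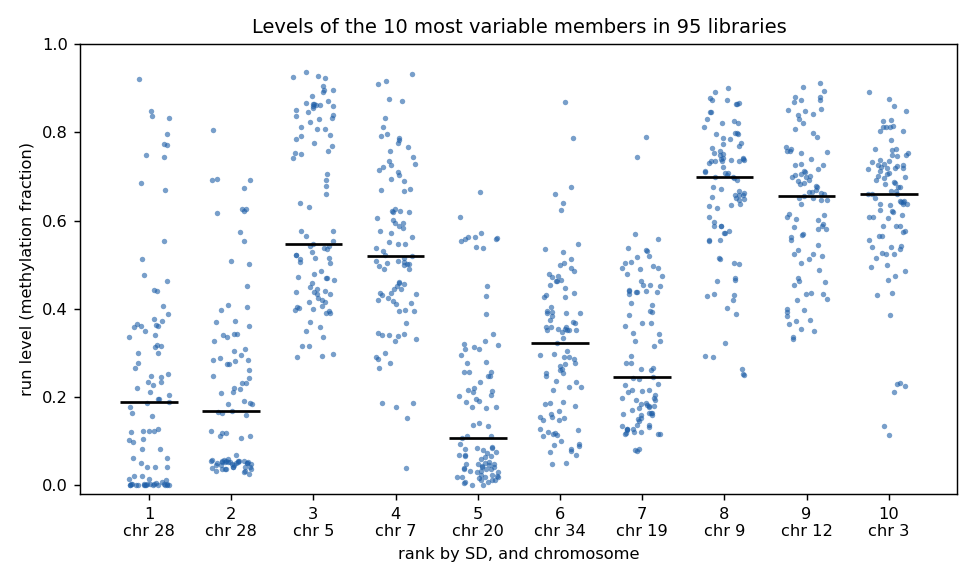
Run levels (methylation fraction) of the 10 most variable members are shown for each of 95 libraries as points, spread sideways only for display, with a bar at the median. The first 2 members have medians of 0.19 and 0.169 and a high tail to 0.92 and 0.805, the third has no library under 0.29, and the last 3 have medians from 0.655 to 0.698.

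Over all members, 80 were mostly low with a high tail, 37 were mostly high with a low tail, 2 fell into 3 separate levels, and the remaining 181 met none of these definitions. A high tail needed a median under 0.3 and a skew over 0.5, and a low tail a median over 0.7 and a skew under -0.5. These shapes were defined after the values had been seen. The leading members with a low tail were chr9:26795438-26795599, with a median of 0.835 and a lowest library of 0.284, and chr27:735347-735502, with 0.783 and 0.468. Of the runs in 3 levels, chr20:41399678-41399782 had 53 libraries at a mean of 0.0514, 29 at 0.254 and 13 at 0.55, separated by gaps of 0.0338 and 0.0408. The other, chr11:22409955-22410084, had 79 libraries at a mean of 0.00312, 8 at 0.0919 and 8 at 0.255. Both upper levels of the chromosome 11 run thus rested on 8 libraries each.

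The columns of the leading chromosome 28 run rose and fell together. Over the 95 libraries the median r between its columns was 0.725, and the lowest r of a single column to the run level was 0.661. The run had 31 columns on one strand and 18 on the other, which are read from different molecules, and the levels of the strands correlated at 0.938. Its 10 lowest libraries had levels up to 0.00204 and its 10 highest started at 0.686. A limit of these values showed in the plot of the columns: 103 cells of this run, in 19 libraries, held exactly 1.0 while the other columns of the same library had a median under 0.05. The setting that replaces such values of 1.0 by 0.01 acts at columns with a median under 0.05, which 2 of the 49 columns had, so it did not reach the other 47. With these cells set to 0.01 as well, the median level fell from 0.19 to 0.157, libraries under 0.05 rose in number from 30 to 44, and the SD was 0.261. Of the members, 48 had such cells, and 6 of these had an SD under 0.9 of its value after the change, the lowest being chr12:512176-512350 at a ratio of 0.581.

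**Figure D3:**
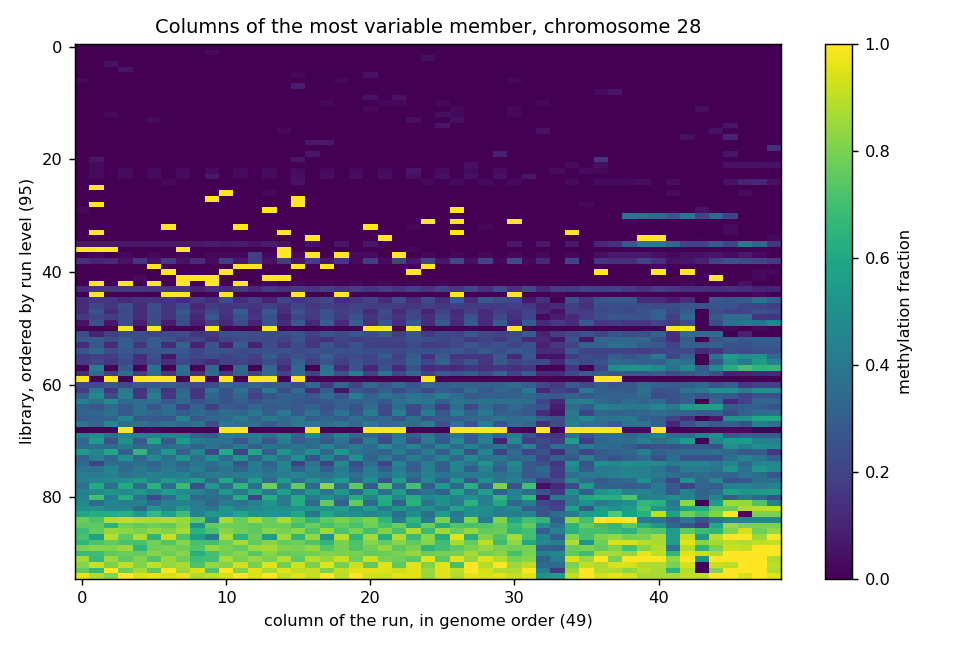
Methylation fractions at the 49 columns of the most variable member (horizontal axis, genome order) are shown by colour for 95 libraries (vertical axis, ordered by run level). Low libraries are near 0 and high libraries near 1 at most columns. Cells of 1.0, single or in adjacent columns, stand in otherwise near-0 libraries, 103 of them in 19 libraries.

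The pair on chromosome 28 moved as one, although no listed column lay between the 2 runs. They spanned 14582 bp together, and their levels correlated over 95 libraries at r = 0.907 (rho = 0.85, r = 0.899 without the 2 libraries farthest from the median). Within the 10 code prefixes r ran from 0.645 to 0.986, and with the cells of 1.0 set as above it was 0.93. Of the 13 libraries over 0.5 in the first run, 12 were over 0.5 in the second. All 30 libraries under 0.05 in the first were under 0.12 in the second.

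A column 12536 bp beyond the first run, at position 3540992 of chromosome 28, had the pattern of a sequence variant. Such a variant-like column had at least 8 libraries under 0.12, at least 8 from 0.3 to 0.7 and at least 8 over 0.88, with at most 12 in the gaps, as a variant at the cytosine can give in animals with 0, 1 or 2 copies of a methylated CpG. In the 15 libraries low at this column the first run ranged from 0.000612 to 0.127, with a median of 0.00429. In the 42 libraries in the middle it ranged from 0 to 0.464, with a median of 0.197. In the 27 high libraries it ranged from 0.00286 to 0.92, with a median of 0.378. No library low at the column was high in the run, whereas libraries high at the column covered nearly the whole scale. Over 95 libraries r was 0.612 (rho = 0.571, r = 0.614 without the 2 farthest libraries), and within prefixes it ran from 0.296 to 0.917. For the second run r was 0.591. The column was picked for its r among the variant-like columns near members, so no p-value is given. Other columns outside the members, which were not variant-like, had a higher r to the first run. These were positions 3513184 (r = 0.737), 3513039 (0.697) and 3513044 (0.632), on the far side of the second run.

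Some members near a variant-like column were related to it. Outside the members the table held 301 variant-like columns, and 14 members had one within 100000 bp. In 5 of these (35.7%) the absolute r was 0.5 or more, against 3 of 401 other runs (0.748%), and 2 of the 5 share the chromosome 28 column. Within 1000000 bp it was 7 of 115 members. The other runs were set against all 308 variant-like columns of the table, those inside members included, but not against their own columns. They also included the runs left out for their r to the chromosome 9 run. The other runs had a smaller spread, and its part in the difference was not tested. Over pairs of a member and a variant-like column, the absolute r was 0.134 for the 1 pair up to 10000 bp apart, and its median was 0.363 for 19 pairs over 10000 and up to 100000 bp apart, 0.113 for 159 pairs over 100000 and up to 1000000 bp apart, and 0.0845 for 87363 pairs on different chromosomes. Of the pairs on different chromosomes, 6 had an absolute r of 0.5 or more. The strongest, at r = -0.731, joined chr5:78455022-78455134 to position 13439003 of chromosome 9 and exceeded the 0.612 of the chromosome 28 column. Pairs share the 95 libraries, and neighbouring members share columns, so these are descriptions. Besides the chromosome 28 pair, the 5 were chr12:1500053-1500154 with r = 0.546 to position 1486864, chr23:2966712-2966962 with r = 0.521 to position 2915334, and chr12:1327041-1327316 with r = -0.512 to position 1410520. Within members, 5 runs held 7 variant-like columns, or 1.67% of members against 0.371% of all runs. A variant-like column spreads widely by definition and raises the SD of its run. The rule therefore favoured such runs, and the higher share is no separate result.

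The third member was related to another chromosome. Over the whole table, 59 columns on chromosomes other than 5 had an absolute r of 0.5 or more to chr5:78455022-78455134, and all 59 lay on chromosome 9, between positions 10348741 and 18215679, a stretch of 7.87 Mb with 1567 listed columns. Of these, 46 moved in the same direction as the member and 13 in the opposite one. The leading column, at position 15459262 of chromosome 9, had 24 libraries under 0.12, 27 from 0.3 to 0.7 and 27 over 0.88. In the 24 low libraries the chromosome 5 run lay between 0.741 and 0.936, with a median of 0.858. In the 27 middle libraries it lay between 0.39 and 0.904, with a median of 0.521. In the 27 high libraries it lay between 0.29 and 0.87, with a median of 0.434. Every library near 0 at the chromosome 9 column was thus in the upper part of the chromosome 5 range, while the other classes overlapped widely.

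The relation had the same sign in each set of libraries. Over 95 libraries r was -0.742 (rho = -0.695, r = -0.737 without the 2 libraries farthest from the median). Within the 10 code prefixes, of 8 to 11 libraries each, r ran from -0.963 to -0.412. The leading chromosome 9 column was picked for its r over these same libraries. The split by prefix is therefore no separate support, and no p-value is given. The 59 columns on chromosome 9 included part of the longest member, chr9:10349645-10351766, which had 401 columns over 2122 bp, the most of any run. This member ranged from 0.42 through a median of 0.582 to 0.893, and its level had r = 0.534 to the third member (rho = 0.55, and 0.319 to 0.868 within prefixes). Of the columns outside itself with an absolute r of 0.5 or more to the longest member, 7 lay on other chromosomes, all 7 on chromosome 5 in the 1 Mb window from 78000000. Another chromosome 5 member, chr5:78331648-78331804, lay 123218 bp from the third. It had 10 such columns on other chromosomes, again all on chromosome 9, and its r to the leading chromosome 9 column was -0.558, while its r to the third member was 0.358. What links the chromosomes was not tested.

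**Figure D4:**
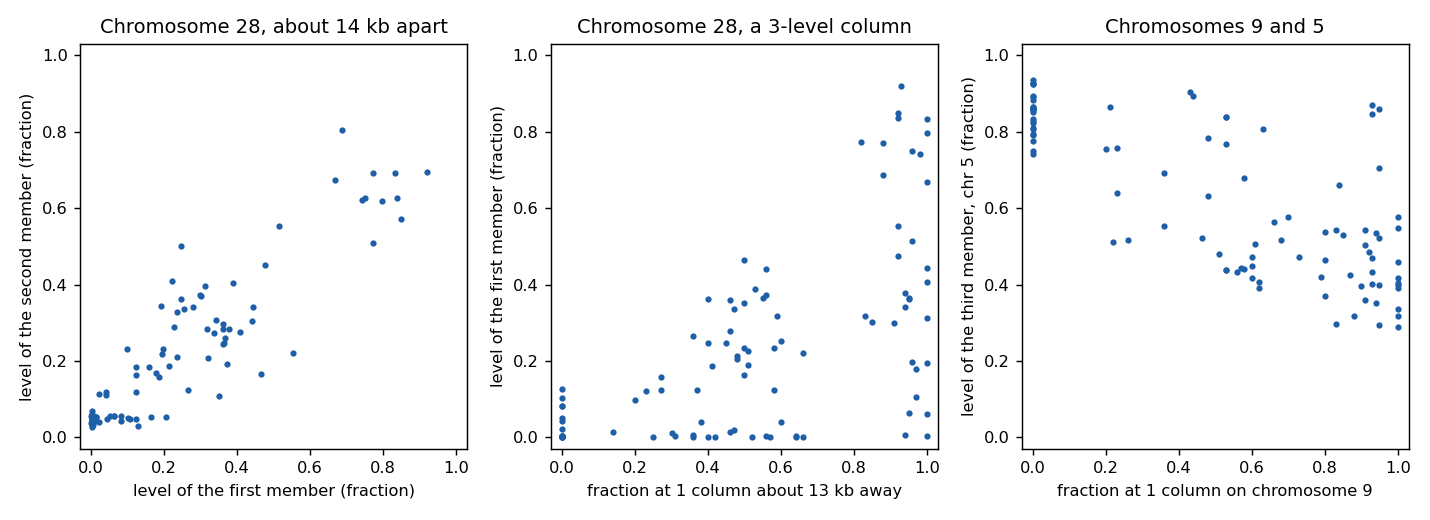
Each point is 1 of 95 libraries and all axes are methylation fractions. The left panel sets the second member against the first (chromosome 28, r = 0.907), the middle panel the first member against a column with 3 levels 12536 bp away (r = 0.612), and the right panel the third member, on chromosome 5, against a column on chromosome 9 (r = -0.742), where every library near 0 has a level from 0.741 to 0.936.

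Related columns gathered on 1 other chromosome in 6 members in all, counted as 10 or more columns that made up at least 50% of those on other chromosomes. In chr12:1499305-1499875, with 72 columns and levels from 0.205 to 0.653, all 10 related columns on other chromosomes lay within 49 bp on chromosome 32, inside the member chr32:6407502-6407585. That chromosome 32 run was near 0 in most libraries, with a median of 0.00385 and a highest library of 0.349, and the levels of the 2 members correlated at 0.56 (rho = 0.423, and 0.136 to 0.852 within prefixes). On chromosome 7, 3 members within 24813 bp, chr7:80949580-80950002, chr7:80968008-80968777 and chr7:80973851-80974392, had 16, 21 and 14 related columns on chromosome 1 between 60596958 and 60597193. These columns belonged to 1 run of 67 columns, chr1:60596958-60597239, whose level ran from 0.0485 through a median of 0.134 to 0.271. Its r to the middle of the 3 members was 0.763 (rho = 0.717, and 0.555 to 0.898 within prefixes). The chromosome 7 members also moved with each other, at r from 0.602 to 0.799.

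The number of related columns differed widely between members. In 60 members no column anywhere outside the run reached an absolute r of 0.5, in 86 none on another chromosome did, and 60 members had at least 1 such column within 50000 bp. A group of 52 members had 100 or more such columns on other chromosomes. The runs on other chromosomes most like the leading chromosome 28 run were chr8:70402320-70402410 (r = -0.405), chr16:14684993-14685107 (r = 0.372) and chr9:880037-880127 (r = 0.359), far below its r of 0.907 to its neighbour. The first of these is itself a member.

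Members lay on 37 of the 38 autosomes in the table, and none lay on chromosome 36, which had 73 runs. The share of runs that were members was highest on chromosome 38, at 6 of 46 runs (13%), followed by chromosome 24 at 17 of 191 (8.9%), and lowest among the others on chromosome 29, at 1 of 66 (1.52%). Within 50000 bp of each other, 72 members formed 27 clusters.

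The largest cluster had 7 members between 43589325 and 43637775 on chromosome 24, and no other run lay between them. They were chr24:43589325-43589693, chr24:43592324-43592454, chr24:43601123-43601358, chr24:43601797-43601975, chr24:43605988-43606180, chr24:43637514-43637617 and chr24:43637726-43637775. All 7 were intermediate, with medians from 0.439 to 0.547, but they did not move together, with a median r of 0.119 and a highest of 0.289.

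On chromosome 14, 5 members lay within 2948 bp: chr14:20120066-20120340, chr14:20120547-20120678, chr14:20121081-20121240, chr14:20121504-20122024 and chr14:20122921-20123013. Their medians were nearly equal, from 0.429 to 0.445, while their SDs ran from 0.0564 to 0.124, and their median r was 0.196, with a highest of 0.365. Equal levels thus went with separate variation between libraries.

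The other cluster of 5, between 40276154 and 40332488 of chromosome 14, was mixed. Its members were chr14:40276154-40276575, chr14:40276731-40276918, chr14:40305006-40305725, chr14:40316737-40316893 and chr14:40332261-40332488, with medians from 0.427 to 0.723, and 20 runs, these 5 included, lay in this stretch. Their median r was 0.279 and their highest 0.852. A set of 3 on chromosome 4, chr4:10463013-10463246, chr4:10463542-10463676 and chr4:10464810-10465095, moved together at r from 0.753 to 0.772. Near members did not always vary together. Of 21 pairs of members up to 1000 bp apart, 7 had r of 0.5 or more, with a median of 0.213. The median was 0.178 for 37 pairs over 5000 and up to 50000 bp apart and 0.0203 for 43264 pairs on different chromosomes.

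Neighbouring runs that were no members had levels little related to those of the members. Of the members, 77 had another run within 1000 bp, and in 45 of these the nearest was no member. Their r to the member had a median of 0.0893. These 45 neighbours had a median SD of 0.0169, and 28 had a median level under 0.1, as 71.3% of all runs had. A run that was no member had an SD under the member limit unless left out for its r. Their smaller SD thus follows from the rule.

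Inside the members, columns varied together more than in other runs of like level. The mean of every other column and the mean of the remaining columns correlated over libraries with a median r of 0.828, and in 174 members with r of 0.8 or more. In the 118 members with a median level from 0.3 to 0.7 the median r was also 0.828. In the 104 other runs of that level, without those left out for their r to the chromosome 9 run, it was 0.512. A mean spreads more where its columns move together, so the rule favoured such runs. Columns on opposite strands come from different molecules. In the 79 members with at least 4 columns on each strand, the r between strands had a median of 0.516, and 44 had r of 0.5 or more. In 57 members every column had r of 0.5 or more to the rest of the run, and in 10 members none did.

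A few members rested largely on 2 columns. Without its 1 most variable column a member kept at least 0.602 of its SD. Without its 2 most variable columns, a member kept a median of 0.971 of its SD, but 5 members kept less than 0.5. These were chr8:70402320-70402410 (ratio 0.242), chr6:61081047-61081250 (0.37), chr9:42132335-42132540 (0.439), chr2:34358595-34358708 (0.481) and chr31:36640751-36640866 (0.482), named after their values were seen. Of the 5 members with a variant-like column, 3 were among them: the runs on chromosomes 8, 6 and 31.

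Repeat captures showed how far the members' levels returned in a second measurement. The labels describe repeats of the capture for 6 dogs, and 6 libraries coded CHYB6 carry numbers (1, 5, 6, 7, 8 and 10) that also occur in codes starting with SCE_CF_Pilot. The rule did not use the CHYB6 libraries, but 5 of the 6 Pilot libraries were among the 95. Of the members, 283 had at least 5 columns in both tables and 17 had fewer.

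In the leading chromosome 28 run, the levels in the Pilot and the CHYB6 library were 0 and 0.00102 for number 1, 0.796 and 0.754 for number 5, 0.253 and 0.281 for number 6, 0.0135 and 0.0296 for number 7, 0.553 and 0.669 for number 8, and 0.351 and 0.164 for number 10. In the third member, on chromosome 5, they were 0.406 and 0.481, 0.864 and 0.888, 0.895 and 0.822, 0.504 and 0.544, 0.459 and 0.451, and 0.535 and 0.526 in the same order. In both runs the numbers with the highest levels in one capture had the highest in the other. The chromosome 28 levels of number 10 came from cells of 1.0 among near-0 cells. Its Pilot library held 17 of them, some in adjacent columns, with no other cell above 0.03. With 1.0 set to 0.01 beside near-0 cells, number 10 was at 0.00714 and 0.00265 and number 7 at 0.0135 and 0.00939, and the levels of the other numbers did not change. In chr11:22409955-22410084, with 3 levels, number 6 was at 0.138 and 0.104 while the other numbers lay from 0 to 0.0127.

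Across the 283 members, each library matched the one with its own number. Levels were centred on each member's median over the 95 libraries, and the r between libraries of the same number was 0.766, 0.857, 0.676, 0.669, 0.8 and 0.777 for numbers 1, 5, 6, 7, 8 and 10. The mean was 0.758 ± 0.073 (SD, n = 6 numbers), while libraries of different numbers had a median r of 0.00386, from -0.12 to 0.23 (exact two-sided permutation test over 720 pairings, p = 0.00139, the smallest this design allows). The highest r to any other library was lower in each case, and came nearest for number 5, at r = 0.545 with the library coded L7_A23. In the 6880 runs that were no members, those left out for their r to the chromosome 9 run included, the mean same-number r was 0.539, from 0.47 to 0.723, and no test of the difference was made. The SD over the 6 CHYB6 libraries had a median of 0.0693 over the members, and in 190 of 283 it was at or above the member limit. In 102 other runs with a median from 0.3 to 0.7, without those left out, it was 0.0425.

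**Figure D5:**
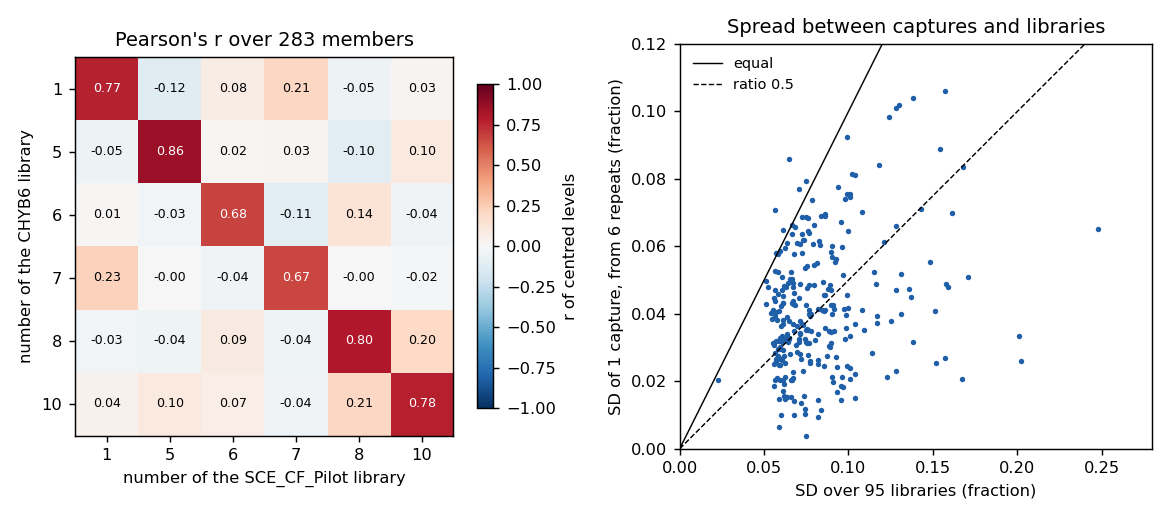
The left panel gives Pearson's r over 283 members between each CHYB6 library (rows) and each Pilot library (columns), which is 0.669 to 0.857 on the diagonal of equal numbers and -0.12 to 0.23 elsewhere. The right panel sets the SD of 1 capture, estimated from the 6 repeats (vertical axis, fraction), against the SD over 95 libraries (horizontal axis, fraction) for each member, with lines for equal values and for a ratio of 0.5.

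Members differed in how well they repeated. The SD of 1 capture, from the differences within the 6 numbers, was a median of 0.507 of the SD over the 95 libraries, from 0.0503 to 1.33. It was under 0.5 in 135 members and under 0.25 in 36, and over 1 in 6. The closest repeats relative to the spread were in chr30:26776818-26776923 (ratio 0.0503), chr2:34358595-34358708 (0.109) and chr18:49134358-49134574 (0.115). In the first of these the 6 pairs were 0.04 and 0.0436, 0.156 and 0.158, 0.0129 and 0.00429, 0.015 and 0.00714, 0.0621 and 0.0579, and 0.0671 and 0.0671. The second of these pairs fell to 0.0143 and 0.0164 with 1.0 set to 0.01 beside near-0 cells, and the ratio was then 0.0576. The 6 numbers reached at most 0.158 in this run, so repeats of its higher levels were not covered. The chromosome 2 run is 1 of the 5 members named above that rested largely on 2 columns.

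The poorest were chr20:44307192-44307289 (ratio 1.33), chr3:73002220-73002458 (1.26) and chr5:11293127-11293262 (1.1). In the chromosome 20 run the Pilot and CHYB6 levels were 0.079 and 0.057, 0.199 and 0.308, 0.184 and 0.321, 0.028 and 0.251, 0.206 and 0.117, and 0.132 and 0.129. The differences within a number were as large as those between numbers, so that its spread over libraries did not exceed the spread between captures. Over the 10 leading members with enough shared columns the ratio ran from 0.129 in the second chromosome 28 run to 0.496 in the chromosome 20 run of 3 levels. The ratio of the first chromosome 28 run was 0.262, and 0.14 with 1.0 set as above. The 170 runs with a median from 0.3 to 0.7 that were no members, here with those left out for their r, had a median ratio of 0.534.

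The library codes gave the only grouping of the tables. For 84 libraries whose code has a prefix (9 prefixes) and a second element (24 elements), each was tested given the other with limma's moderated F test over all 7274 runs, at an adjusted p under 0.05 after the Benjamini-Hochberg method. What the codes stand for is not given in the sources used here. By prefix 0 of 300 members and 0 of all runs (0%) were called, and 17 members had an unadjusted p under 0.05, which 4.91% of all runs had. By second element 15 members (5%) were called, where 3.92% of all runs were, and 77 members (25.7%) had an unadjusted p under 0.05, against 15.9% of all runs. The members' share by adjusted p was thus near that of all runs.

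The second element gave the largest share of variance, 57%, in chr30:4630166-4630327 (adjusted p = 0.00949, limma). It gave 56.3% in chr2:36383756-36383877 (limma, adjusted p = 0.00627) and 55.7% in chr7:79709690-79709822 (limma, adjusted p = 0.00391). The median over members was 32.9%, against 30.1% over all runs, and the number of elements alone gives 27.7%. Of the 15 members called, 12 had an absolute r of 0.3 or more to the chromosome 9 run used by the rule. Of all 300 members, 97 did. The absolute r of the 15 ran from 0.216 to 0.495, and the rule had kept every member under 0.5. The r was negative in 12 of the 15, and in 59 of the 97. Whether these shares differ was not tested. The prefix gave at most 28.2%, in chr22:5319574-5319713, then 25.9% in chr1:101090723-101090899 and 22.8% in chr8:71285899-71285968, none of them called, where the number of prefixes alone gives 9.64%. For the leading chromosome 28 run, the prefix gave 4.56% and the second element 39.1% (limma, adjusted p = 0.357).

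With runs related to the chromosome 9 run already left out, no single pattern over libraries held most of the members' variance. The rule thus limited the share that a pattern like that run could hold. The first principal component of their levels held 10.1% of the variance, and 18 components were needed for 50% of it. The first component had r = 0.775 to the chromosome 9 run, and 41 members had an absolute r of 0.5 or more to it. Although members were limited to an absolute r under 0.5 to that run, 97 had 0.3 or more, 38 of them positive and 59 negative.

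The extremes of the members were shared out over most libraries, but unevenly. The mean level over the 300 members had a median of 0.422 per library, from 0.391 to 0.455 (SD 0.0134), so that no library was high or low throughout. Of the 95 libraries, 88 were the highest or the lowest in at least 1 member, and 1 library was so in at most 20. A library lay over 2 SD from the mean in a median of 14 members, with a range of 1 to 33. Values with more than 2 decimals, treated as filled in, made up a median of 0.83% of a member's cells and at most 3.16%. The library coded L1_A7 had the largest share of them, 25% of its cells in members, and lay over 2 SD from the mean in 15 members. Libraries with no filled-in cell in the whole table did so in few members, from 1 in L6_A10 to 6 in L6_A27. Those with some differed, with 33 members in SCE_CF_Pilot_7_S7 (1.44% of all cells), 33 in L2_A13 (0.0947%) and 1 in L9_A8 (0.00164%). The part of data completeness in the members' spread was not tested.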

How the data were processed

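Fractions of methylated reads per cytosine and library were deposited by the authors as a main table (95 libraries) and a repeat table (7 libraries). Per the submitters' processing notes, the build was CanFam3.1 and the tools included Bowtie2 2.1.0, Bismark 0.14.3 and Trim Galore, with no step given for any. The tables hold no coverage. Depth and the precision it gives are therefore unknown, and sites could not be filtered on coverage. Whether coordinates count from 0 or 1 was not settled.

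Values of 1.0 (tolerance 1e-06) at columns with a median under 0.05 were set to 0.01, as no cell of 2 decimals held 0.01. Strand came from consecutive column pairs in the repeat table. Shapes, variant-like columns and searches over the table were set after the data were seen. The members and lists were chosen with earlier results of these data known. Named regions were the 10 largest SDs, the leaders of each shape, the limit, the largest clusters, the longest run, the extremes of repeat difference and of variance by code, and the runs most like the first member. Relations in the table were added to these for their r. Regions were not compared with genes. The table mapped to human probes was not used here.

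Same-number agreement used an exact permutation test, and codes used limma 3.58.1 (R 4.3.3). Figures were drawn with Matplotlib 3.10.9, and other steps used SciPy 1.17.1 and NumPy 2.4.6 under Python 3.11.15. Scripts were tested on simulated data. Alternatives covered the 1.0 setting, filled-in cells, single libraries, run definition, spread measure, code terms and repeat numbers. No label ties libraries to separate dogs, so the limma p-values rest on the spread between these libraries. The permutation p-values only set the pairing by number against all pairings of the same libraries.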

Additional observations from a re-analysis of the deposited data

How the results depend on the processing

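The member set depended most on the treatment of 1.0. Of the 300 members, 91 were kept with the values as deposited, 105 with runs of 15 or more columns and 193 with no run left out for its r to the chromosome 9 run. The last 2 counts were set by the alternatives themselves. Only 105 members have 15 or more columns, so all that could be kept were kept. With no run left out, the 107 left-out runs among the 300 largest SDs took the other places. The other 9 of 12 alternatives kept 228 to 298. These included 2 chosen after seeing the data: 237 without the libraries with second elements A1, A3 or A4, and 289 with 1.0 also set to 0.01 beside near-0 cells of the same library. All 10 leading members were kept in every alternative except runs of 15 or more columns, which kept 5. By second code element (limma), 23 members were called on the logit scale, where 6139 runs were tested, and 43 of 274 (15.7%) among runs with a median from 0.1 to 0.9, where 23.8% of all such runs were called. The cause was not tested, beyond the fewer runs tested. With other settings 12 and 14 were called, and by prefix 0 in each. The mean same-number r was 0.738 to 0.775 with each number left out in turn (exact permutation p = 0.00833 each, the smallest 5 numbers allow), and 0.689 to 0.767 under the other alternatives, the highest with 1.0 also set beside near-0 cells. No paired analysis was possible because no library was tied to a label, other than the pairing of repeat captures by the number in their codes. Depth is unknown, so what it limits could not be measured.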
